A study of Canis lupus familiaris with 42 samples.

Results

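The 9 genes described here encode 6 matrix metalloproteinases (MMP1, MMP2, MMP3, MMP9, MMP13 and MMP14) and 3 tissue inhibitors of metalloproteinases (TIMP1, TIMP2 and TIMP3). They were taken from a list of names, and all 9 were measured, among 15115 genes in all. The list was chosen with earlier results of these data known, so the counts of members called are description only. Each gene is represented by the probe set that carries its symbol alone and has the highest mean over all arrays. The other 9 of the 18 probe sets served as a check. MMP3, MMP14, TIMP1 and TIMP2 had only 1 probe set each, so this check was not possible for them. Some of these probe sets, those of MMP1, MMP14 and TIMP2 among them, are of a type that can also bind related transcripts. RNA of spontaneous sarcomas of dogs was measured on Affymetrix canine arrays after and before the first hyperthermia treatment, which was given as an adjuvant to radiotherapy. The group after treatment held 21 arrays, and the untreated baseline group held 21 arrays of the same tumours, numbered 1 to 21 here. The series describes 22 tumours, and the remaining one was not analysed here. The labels give neither breed, age nor sarcoma type, nor the time between treatment and the second sample, nor whether radiation had been given by then. No second sample of an unheated tumour was analysed here. Values are log2 levels after RMA, so a change of 1 is a 2-fold change.

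Matrix metalloproteinases are zinc-dependent proteases that are made as inactive precursors and cleave the extracellular matrix once activated. The collagenases MMP1 and MMP13 cut fibrillar collagen, the stromelysin MMP3 cuts many matrix proteins and activates other precursors, the gelatinases MMP2 and MMP9 degrade denatured and basement membrane collagen, and MMP14 sits in the cell membrane. TIMPs bind the active proteases and block them. In sarcomas the enzymes come from tumour cells and from the fibroblasts, macrophages and neutrophils among them. The samples were bulk tissue, so fewer cells of a type and less RNA per cell cannot be told apart.

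The array medians lay between 5.20 and 5.31. The tumours formed 2 groups by the level of the poly-A controls, bacterial transcripts added before labelling. In 9 tumours the median level of these controls was 7.53 after and 6.93 before treatment, and in the other 12 tumours it was 3.38 after and 3.401 before. No label names a batch, and no tumour was split between these groups. The 3′ over 5′ contrast, the difference between probe sets at the ends of the ACTB and GAPDH controls and a sign of RNA quality, changed by a mean of 0.10 (SD 0.37, n = 21). This contrast changed by a mean of 0.302 in the 9 tumours with high poly-A controls and of -0.0496 in the other 12. Differences between these 2 groups of tumours therefore cannot be told apart from this shift. The mesenchymal marker list had all 11 genes measured, and vimentin (VIM) averaged 14.01 after and 13.99 before treatment. Tumour 15 stood apart from this picture. Its keratinocyte markers KRT1 (13.7 after, 13.5 before) and KRT10 (12.6 after, 12.1 before) lay above those of all the other 20 tumours, whose highest values were 8.85 after and 8.62 before for KRT1. SFN (10.2 after, 11.4 before) did so too. DSG3 (6.66 after, 9.01 before) and TP63 (3.75 after, 4.22 before) were the highest before treatment but not after it, where the other tumours reached 7.83 and 4.04. The mean over the 5 measured keratinocyte markers was 9.37 after and 10.04 before in tumour 15, against at most 5.72 after and 5.54 before in the others. Its mesenchymal list averaged 11.67 after and 11.29 before, within the range of the other tumours. Before treatment its VIM (13.23) lay below that of all the other 20 tumours, whose lowest value was 13.54. SPARC and THY1 were likewise the lowest before treatment, and DCN was the lowest after it (12.52, against at least 12.75). At the other time each of these genes lay within the range of the others, as did the remaining mesenchymal genes both times. Tumour 15 is labelled as a sarcoma like the rest, and results that rest on it are given with and without it.

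The question of the study was how these tumours respond to the first treatment. MMP1 rose more than any other of the 15115 genes by its mean change, TIMP1 rose by a smaller amount, and TIMP2 rose slightly. MMP3 had a mean change above 0 but did not pass the test. MMP9 and MMP13 did not pass and had mean changes near 0, while MMP14, TIMP3 and MMP2 had mean changes below 0 that did not pass. With the tumour as a block, limma called 3 of the 9 members higher at an adjusted p under 0.05 (Benjamini-Hochberg, 42924 probe sets), where 4.02% of the genes were called higher. It called 0 members lower, where 3.13% of the genes were called lower, although 3 had an unadjusted p under 0.05 on that side. The Wilcoxon signed-rank test called 2 members higher (3.14% of the genes) and 0 lower (2.39%). The median change of the 9 members was 0.09, beside 0.01 over all genes. In the 9 tumours with high poly-A controls alone, 2 members were called higher (MMP1 and TIMP2, where 1.49% of the genes were) and 0 lower (1.81%). In the 12 with low controls alone 0 members were called either way, as was 0% of the genes. With the 3′ over 5′ contrast as covariate, MMP1 alone was called higher (2.75% of the genes) and 0 members lower (2.18%).

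**Figure D1:**
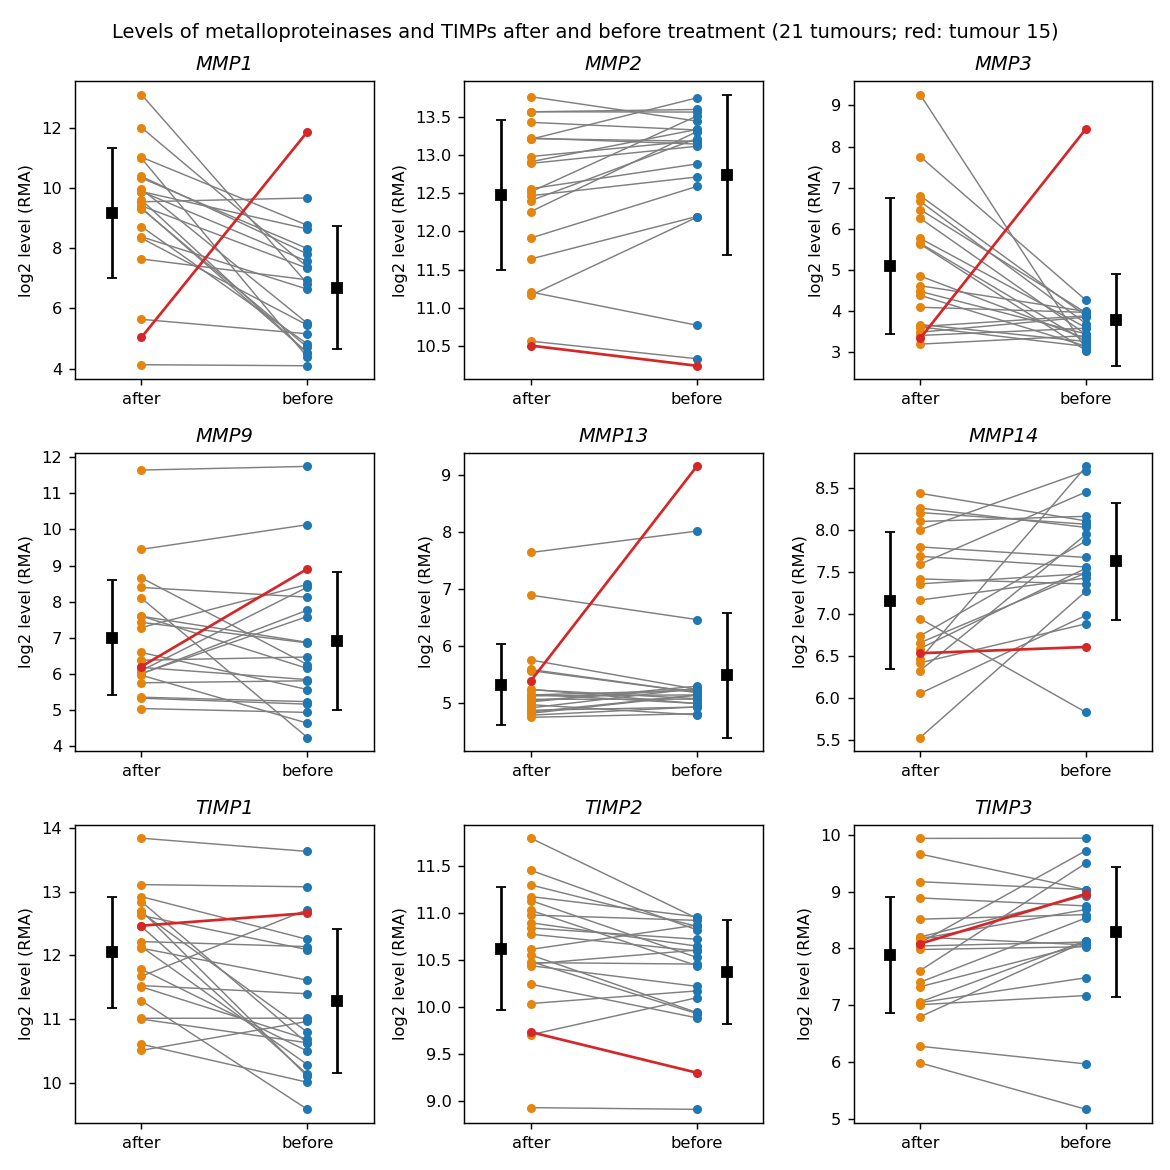
Log2 level (RMA) of each of the 9 genes in 21 tumours after and before treatment, with a line for each tumour, black squares for the mean and bars for the SD. Tumour 15, in red, fell steeply in MMP1, MMP3 and MMP13, while the MMP1 level of 19 other tumours was higher after treatment.

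MMP1, the interstitial collagenase, lay at 4.13 at the lowest, 9.55 in the median and 13.1 at the highest after treatment, against 4.09, 6.82 and 11.9 before. The groups overlapped over most of their range, but 3 tumours lay below a level of 6 after treatment and 9 before it. The mean was 9.18 ± 2.17 after and 6.70 ± 2.04 before treatment (SD, n = 21 each). MMP1 changed by 2.48 ± 0.57 (SE), or 5.59-fold, with 19 tumours higher and 2 lower (limma adjusted p = 0.0117). In 16 tumours it rose at least 2-fold. Among those with large rises, tumours 16 (4.38), 14 (4.51), 17 (4.53) and 2 (4.71) started near 4.36. That was the highest poly-A control median on an array with low controls, so the fold of MMP1 is not exact.

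The MMP1 response differed widely among the tumours. Over all 21 tumours the SD of its change (2.903) was exceeded by 1 of the 15115 genes. Without tumour 15 this SD was 2.02, and its rank was not computed. Tumour 16 reached 10.99 after treatment, against 4.38 before. In tumour 1 MMP1 stood at 13.1 after and 6.82 before, and in tumour 14 at 9.61 after and 4.51 before. These were the 3 largest rises, and tumour 1 ended at the highest level of all. Tumour 13 remained low, at 4.13 after and 4.09 before treatment. Tumour 5 remained high, at 9.55 after and 9.68 before. In tumour 15 MMP1 was at 5.04 after and 11.9 before treatment, a change of -6.84. That tumour had the highest MMP1 level of the series before treatment and the second lowest after it. Without tumour 15 the mean change was 2.95 (limma adjusted p = 0.000205).

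The second MMP1 probe set gave nearly the same picture, with a change of 2.696 ± 0.63 (SE, limma adjusted p = 0.0126). Its changes correlated with those of the first at r = 0.995 over the 21 tumours, where both read the same RNA. Of its 21 levels at each time, 19 after and 14 before treatment lay above 4.36. By the level of the poly-A controls, the mean change of MMP1 was 2.52 in the 9 tumours with high controls, all 9 higher, and 2.45 in the 12 with low controls, 10 of them higher. Tumour 15, with its change of -6.84, was among those 12, where the SD of the change was 3.79, against 1.13 in the other 9. Tested in those 12 tumours alone, MMP1 did not pass (limma adjusted p = 0.319). The difference between these groups was 0.07 ± 1.18 (SE) and did not pass (limma adjusted p = 0.995). Neither this difference nor the mean of the low group was computed without tumour 15.

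MMP3, or stromelysin 1, is known to complete the activation of the MMP1 precursor. Its level was 3.19 at the lowest, 4.61 in the median and 9.26 at the highest after treatment, against 3.03, 3.58 and 8.44 before. Before treatment MMP3 was low in every tumour except tumour 15, since the highest of the other 20 lay at 4.26, under the highest poly-A control median of 4.36 on an array with low controls. After treatment 9 tumours lay above 5. The largest rise was in tumour 1, with a level of 9.26 after and 3.06 before, followed by tumour 7, with 7.76 after and 4.26 before. In tumour 15 MMP3 was at 3.33 after and 8.44 before treatment.

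MMP3 changed by 1.31 ± 0.43 (SE), with 16 tumours higher and 5 lower, and did not pass (limma adjusted p = 0.0748). As 20 of the 21 levels before treatment lay under 4.36, this is a difference of measured values and gives no exact fold. The call depended on tumour 15. Without it the mean change was 1.63 (limma adjusted p = 0.00473), and 4 members were then called higher, where 4.42% of the genes were, and 0 lower, where 4.32% were. The mean change of MMP3 was 0.902 in the tumours with high poly-A controls and 1.61 in those with low controls, a difference of -0.71 ± 0.88 (SE, limma adjusted p = 0.909). Tumour 15 was in the group with low controls, and this difference was not computed without it. The SD of MMP3 among all 21 tumours was 1.66 after and 1.12 before treatment, a ratio of 1.48 (Pitman-Morgan test with swaps within tumours, adjusted p = 0.681 over 9 members). Without tumour 15 the SD was 1.65 after and 0.36 before, but every level before treatment then lay under 4.36, so this small SD may be set by the lower end of the scale and no change in spread is read from it. None of the other members passed this test, with or without tumour 15. The nearest was MMP9, with an SD of 1.60 after and 1.91 before treatment (permutation p = 0.0295, adjusted p = 0.265).

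MMP13, also called collagenase 3, is known from bone and cartilage. Its level was 4.76 at the lowest, 5.13 in the median and 7.65 at the highest after treatment, against 4.80, 5.15 and 9.16 before. It stood above 6 in tumours 13 and 14 on both occasions (6.898 and 7.65 after, 6.47 and 8.02 before) and in tumour 15 before treatment alone. All other values lay at or under 5.76 after and 5.302 before treatment. MMP13 changed by -0.17 ± 0.17 (SE, limma adjusted p = 0.681), with 13 tumours lower. Tumour 15 made up this mean, with 5.395 after and 9.16 before treatment, and without it the mean change was 0.01.

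In the gene order of the dog assembly UU_Cfam_GSD_1.0, MMP13, MMP12, MMP3 and MMP1 follow each other, and LOC102154292, MMP8, MMP27, MMP20 and MMP7 come next in the same row. MMP12 and LOC102154292 were not analysed here. The other 4 genes on the far side of MMP1 did not pass. MMP8, the neutrophil collagenase, had a mean level of 3.06 after and 3.01 before treatment, and MMP7 had 3.23 after and 3.26 before. MMP27 had a change of 0.08 ± 0.22 (SE), and MMP20 of 0.0997 ± 0.07. MMP1 was thus the only gene called among those of this row that were measured.

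**Figure D2:**
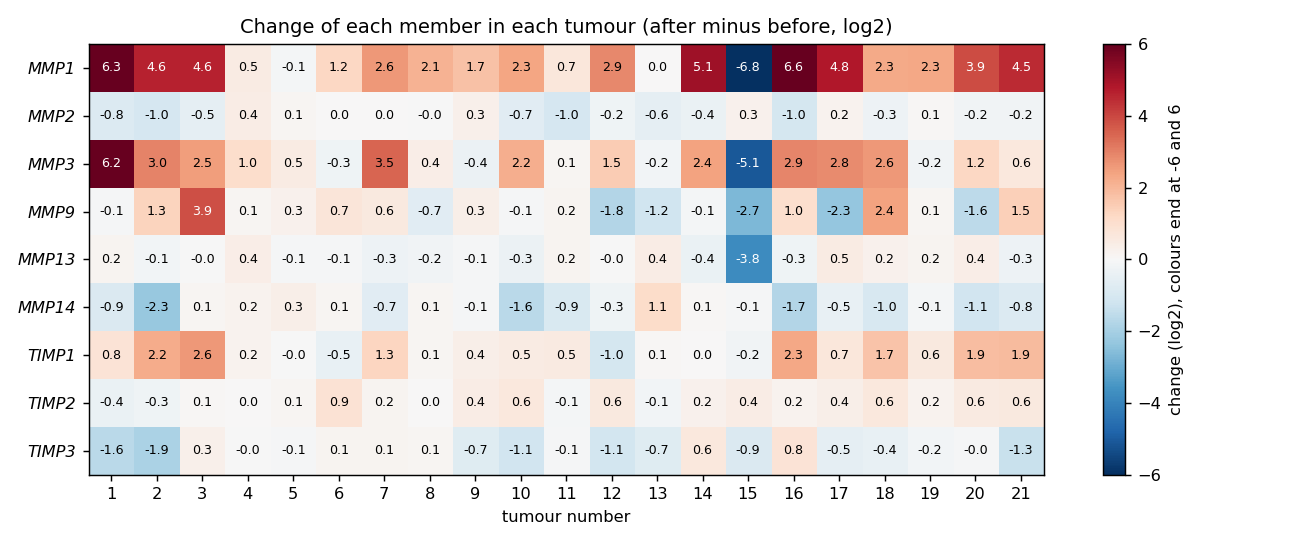
Change of each of the 9 genes (rows) in each of the 21 tumours (columns), as log2 level after minus before, red for higher and blue for lower. MMP1 and MMP3 are red in most tumours and blue in tumour 15, and MMP9 has strong changes of both signs.

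MMP9, gelatinase B, is stored by neutrophils and made by macrophages and osteoclasts. Its level was 5.03 at the lowest, 6.38 in the median and 11.6 at the highest after treatment, against 4.23, 6.46 and 11.7 before. The groups overlapped almost fully, and tumour 14 was the highest in both. MMP9 changed by 0.09 ± 0.303 (SE), with 12 tumours higher and 9 lower (limma adjusted p = 0.921). A small mean here stands for large changes in opposite directions. It rose at least 2-fold in 5 tumours and fell at least 2-fold in 5 others, and the SD of its change (1.53) was the 17th largest of the 15115 genes. In tumour 3 MMP9 stood at 8.095 after and 4.23 before treatment, and in tumour 17 at 6.09 after and 8.402 before. Its other 2 probe sets were dim (means of 3.98 and 3.61 after, 4.01 and 3.68 before) and did not follow the first one (r of the changes -0.26 and -0.09 over 21 tumours). The values of MMP9 therefore rest on 1 probe set.

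MMP2, gelatinase A, is made by fibroblasts and other mesenchymal cells. Its level was 10.5 at the lowest, 12.6 in the median and 13.8 at the highest after treatment, against 10.2, 13.2 and 13.7 before. It lay above the array medians in all tumours, with tumours 15 and 17 the lowest on both occasions. MMP2 changed by -0.27 ± 0.09 (SE), with 13 tumours lower and 8 higher, and did not pass (limma adjusted p = 0.0933). The largest fall was in tumour 16, at -1.04. A second MMP2 probe set was called lower, with a change of -0.385 ± 0.11 (SE, limma adjusted p = 0.031) and 17 tumours lower, and its changes correlated with those of the first at r = 0.934. The third MMP2 probe set lay at 3.54 after and 3.61 before treatment and did not follow the first (r of the changes -0.28).

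MMP14, the membrane-bound enzyme that activates the MMP2 precursor on the cell surface, lay at 5.53, 7.17 and 8.44 (lowest, median and highest) after treatment, against 5.83, 7.56 and 8.76 before. MMP14 changed by -0.47 ± 0.16 (SE), or 0.72-fold, with 14 tumours lower and 7 higher, and did not pass (limma adjusted p = 0.0843). Tumours 2, 16, 10 and 20 fell at least 2-fold. Tumour 2 stood at 6.46 after and 8.76 before treatment. In tumour 13 MMP14 was higher, at 6.95 after and 5.83 before. Tumour 13 also had the largest change of the 3′ over 5′ contrast in either direction (-0.83), so its MMP14 value cannot be told apart from RNA quality. Without tumour 13 the change was -0.55 (limma adjusted p = 0.0286). Without tumours 13 and 15 it was -0.58, and MMP14 was then the 1 member called lower, where 5.27% of the genes were. Its mean change was -0.64 in the tumours with high poly-A controls and -0.34 in those with low controls. The change of MMP14 went with that of the 3′ over 5′ contrast over the 21 tumours (r = -0.767, rho = -0.817, permutation p = 0.0001 and 2e-05). Over the 90 relations of a member with a marker list or with this contrast the adjusted p was 0.009 for r and 0.0018 for rho. It also held without the 2 tumours farthest from the median contrast (r = -0.717), and r was -0.751 in the 9 tumours with high poly-A controls and -0.829 in the other 12. With the contrast as covariate the change of MMP14 was -0.303 (limma adjusted p = 0.127).

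TIMP1, the most inducible of the TIMPs, lay at 10.5 at the lowest, 12.1 in the median and 13.8 at the highest after treatment, against 9.58, 10.96 and 13.6 before. The ranges overlapped, and all values under 10.5 came from before treatment. The mean was 12.05 ± 0.87 after and 11.28 ± 1.13 before (SD, n = 21 each). TIMP1 changed by 0.77 ± 0.198 (SE), or 1.703-fold, with 17 tumours higher and 4 lower (limma adjusted p = 0.022). In 7 tumours it rose at least 2-fold, with the largest rises in tumour 3 (12.7 after, 10.1 before), tumour 16 (12.5 after, 10.1 before) and tumour 2 (12.8 after, 10.6 before). In tumour 12 TIMP1 was at 11.7 after and 12.7 before treatment. Without tumour 15 the mean change was 0.82. The mean change was 0.73 in the 9 tumours with high poly-A controls, 8 of them higher, and 0.801 in the 12 with low controls, 9 of them higher. TIMP1 passed in neither group alone (limma adjusted p = 0.143 and 0.264), and with the 3′ over 5′ contrast as covariate its change was 0.68 (limma adjusted p = 0.0516).

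TIMP2 binds MMP14 and takes part in the activation of the MMP2 precursor, besides its action as an inhibitor. Its level was 8.93 at the lowest, 10.6 in the median and 11.8 at the highest after treatment, against 8.91, 10.5 and 10.96 before. TIMP2 changed by 0.25 ± 0.07 (SE), or 1.19-fold, with 17 tumours higher and 4 lower (limma adjusted p = 0.0351). No tumour changed 2-fold, and the largest rise was 0.85 in tumour 6. TIMP2 did not pass in 9 of 21 fits with a tumour left out, namely tumour 6, 9, 10, 12, 16, 17, 18, 20 or 21, where the change lay between 0.22 and 0.25 (limma adjusted p from 0.0502 to 0.0679). With the 3′ over 5′ contrast as covariate it did not pass either (limma adjusted p = 0.0778). The mean change was 0.39 in the tumours with high poly-A controls and 0.14 in those with low controls, a difference of 0.25 ± 0.13 (SE, limma adjusted p = 0.73).

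TIMP3 binds to the matrix and also inhibits ADAM proteases. Its level was 5.98 at the lowest, 8.04 in the median and 9.94 at the highest after treatment, against 5.16, 8.54 and 9.94 before. TIMP3 changed by -0.41 ± 0.15 (SE), with 15 tumours lower and 6 higher, and did not pass (limma adjusted p = 0.102). It fell at least 2-fold in 5 tumours and most in tumour 2, with 7.61 after and 9.51 before treatment. The other 3 TIMP3 probe sets had mean changes between -0.35 and -0.12, none of which passed, and their changes correlated with those of the first at r from 0.75 to 0.899. The direction of the 3 TIMPs thus differed, with TIMP1 and TIMP2 called higher and TIMP3 lower by its mean but not called.

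**Figure D3:**
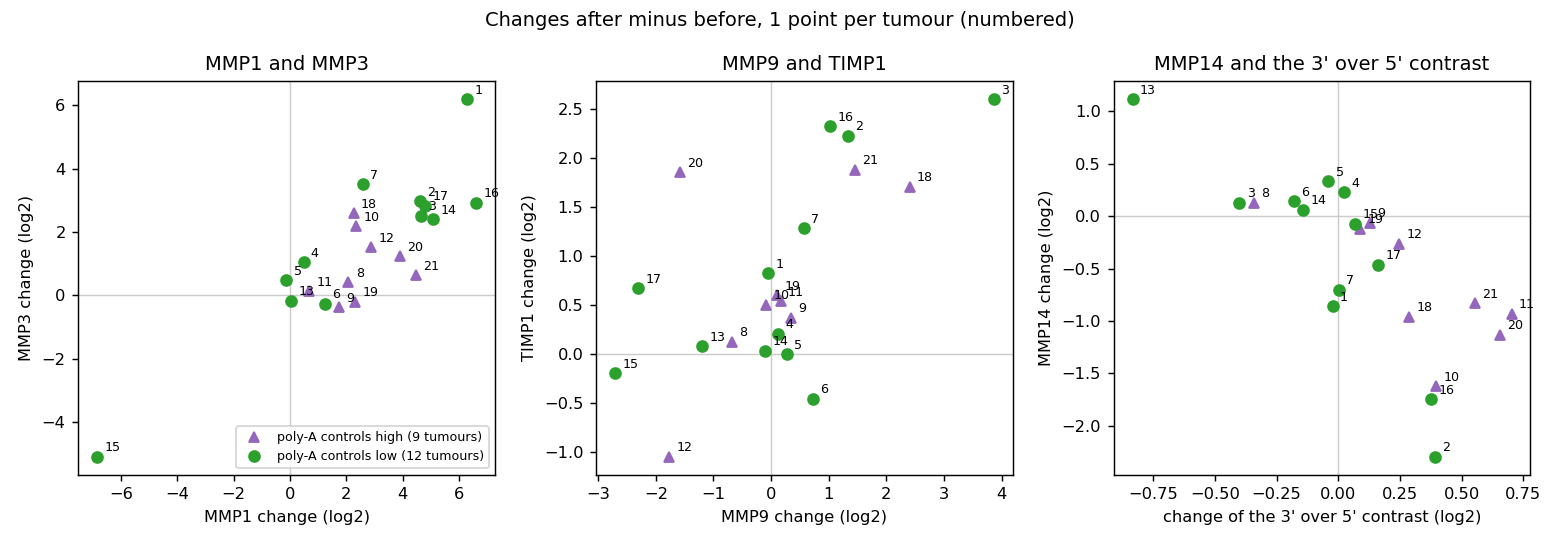
Changes (log2, after minus before) of MMP1 and MMP3, of MMP9 and TIMP1, and of MMP14 against the change of the 3′ over 5′ contrast, with 1 numbered point per tumour and triangles for the 9 tumours with high poly-A controls. Tumour 15 lies far from the others for MMP1 and MMP3, and MMP14 falls where the contrast rises.

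Among the tumours the changes of some members went together. Of the 36 pairs of members, 2 passed by Pearson's r and 4 by Spearman's rho, each adjusted over the 36 pairs. MMP1 and MMP3 passed by both (r = 0.853, rho = 0.766, permutation p = 2e-05 and 7e-05, adjusted p = 0.00072 and 0.00252). Without tumours 15 and 16, the farthest from the median MMP1 change, r was 0.716. Without tumour 15 alone r was 0.715 (permutation test, adjusted p = 0.0151). Within the 12 tumours with low poly-A controls r was 0.918, and within the 9 with high controls it was 0.25 (exact permutation p = 0.516). Tumour 15, which fell in both genes, was among those 12. Here and below, no r within that group was computed without it. In 11 tumours both genes rose at least 2-fold, in 5 tumours MMP1 alone did, and in tumour 4 MMP3 alone did.

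The changes of TIMP1 went with those of several proteases, but no pair with TIMP1 passed without tumour 15. With MMP9 it had r = 0.628 and rho = 0.561 (permutation test, adjusted p = 0.0398 and 0.0646), and without tumours 3 and 15, the farthest from the median MMP9 change, r was 0.484. Without tumour 15 alone the adjusted p was 0.0759. Within the tumours with high and low poly-A controls r was 0.556 and 0.665. With MMP1 the values were r = 0.532 and rho = 0.612 (permutation test, adjusted p = 0.071 and 0.043), and with MMP3 r = 0.437 and rho = 0.596 (permutation test, adjusted p = 0.133 and 0.046). Without tumour 15 neither passed by rho (permutation test, adjusted p = 0.0751 each). All 7 tumours in which TIMP1 rose at least 2-fold were among the 16 in which MMP1 did. With MMP14 TIMP1 went the opposite way (r = -0.588, rho = -0.614, permutation test, adjusted p = 0.0564 and 0.043), and without tumours 2 and 16 r was -0.408. Without tumour 15 this pair did not pass by rho either (permutation test, adjusted p = 0.0648). Within the tumours with high and low poly-A controls the r of TIMP1 was 0.448 and 0.605 with MMP1, 0.171 and 0.536 with MMP3, and -0.493 and -0.664 with MMP14.

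Before treatment a different set of pairs went together. The level of MMP2 rose with that of TIMP2 (r = 0.763, rho = 0.653, permutation test, adjusted p = 0.0119 and 0.058) and ran opposite to that of TIMP1 (r = -0.651, rho = -0.445, permutation test, adjusted p = 0.0284 and 0.197). Without tumours 15 and 17, both low in MMP2, r was 0.723 with TIMP2 and -0.648 with TIMP1. The relation of MMP2 with TIMP2 was r = 0.843 in the tumours with low poly-A controls and 0.26 in those with high controls, and that with TIMP1 was -0.719 and -0.461. Of the 36 pairs 2 passed by r and 0 by rho after adjustment. Without tumour 15, 3 passed by r, the third being MMP9 with MMP13 (r = 0.675, permutation test, adjusted p = 0.0492).

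The mean change of some marker lists went with some of these changes. The genes of a list differed among themselves, so its name does not show that those cells changed. Of the neutrophil list 6 of 10 genes were measured, and 3 were called higher, TREM1, LCN2 and S100A9. S100A8 (0.67 ± 0.23, SE, limma adjusted p = 0.0812), CSF3R (0.09 ± 0.10, limma adjusted p = 0.73) and MMP8 (0.05 ± 0.06, limma adjusted p = 0.711) did not pass. The mean level of the 6 genes per tumour ran from 4.42 to 7.89 after and from 4.43 to 8.48 before treatment, with tumour 15 the highest both times. MMP8 was the lowest member. Over tumours the mean change of this list went with the change of MMP1 (r = 0.657, rho = 0.71, permutation test, adjusted p = 0.0175 and 0.0108 over 90 relations) and with that of MMP3 (r = 0.655, rho = 0.74, permutation test, adjusted p = 0.0177 and 0.0108). Without the 2 tumours farthest from the median list change, r was 0.546 for MMP1 and 0.55 for MMP3, and without tumour 15 it was 0.61 and 0.59. Within the tumours with high and low poly-A controls r was 0.731 and 0.712 for MMP1, and 0.603 and 0.745 for MMP3. The change of MMP9 went with that of the osteoclast list, of which 4 of 6 genes were measured and none was called (r = 0.637, rho = 0.673, permutation test, adjusted p = 0.0311 and 0.0274). That list had a mean level from 6.302 to 8.11 after and from 6.32 to 8.17 before treatment. CALCR, the calcitonin receptor, stood at 3.76 after and 3.69 before, and CTSK at 12.85 after and 12.89 before. Without the 2 tumours farthest from the median change of the list, r was 0.539. Within the tumours with high and low poly-A controls r was 0.751 and 0.652. MMP14 had r = -0.655 with the keratinocyte list, but rho was -0.435 (permutation test, adjusted p = 0.5), and r was -0.143 without the 2 tumours farthest from the median. Of the macrophage list MARCO and MSR1 were called higher and CSF1R lower, of 8 T cell markers CD3D, CD3E, CD3G and LCK were called lower, and of the mesenchymal list SPARC was called lower. Of the endothelial, keratinocyte, skeletal muscle and adipocyte lists 0 genes were called. Over all genes 4.02% were called higher and 3.13% lower. The part of these cells in the changes of the members was not tested.

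The genes whose change over the 21 tumours was most like that of MMP1 were PFKFB3, a regulator of glycolysis (r = 0.893), CDA, cytidine deaminase (r = 0.834), NQO1, a quinone reductase (r = 0.818), the glycerol kinase gene GK (r = 0.815) and PTGES, which makes prostaglandin E (r = 0.811). These were sought among 9178 genes with a mean above the median of all probe sets. Without tumour 15 the r of these genes lay between 0.678 and 0.79. PFKFB3 (0.55 ± 0.13, SE), CDA (0.78 ± 0.21) and NQO1 (0.73 ± 0.17) were called higher (limma adjusted p = 0.0134, 0.0258 and 0.0107), and GK and PTGES were not. For TIMP1 they were ACSL1 (r = 0.838), GLIPR1 (r = 0.813), ANXA1, which encodes annexin A1 (r = 0.795), SHE (r = 0.778) and the integrin gene ITGA6 (r = 0.767). For MMP3 they were NABP1 (r = 0.866) and MMP1, for MMP9 GPNMB and DUSP6 (r = 0.753 and 0.737), and for MMP2 SCPEP1 and PLXDC1 (r = 0.868 and 0.859). MMP14 was most like THY1, a surface protein of fibroblasts (r = 0.867), and CNP (r = 0.865), TIMP2 like DLA-DMA and SYBU (r = 0.781 and 0.765), and TIMP3 like PDE5A and HIF3A (r = 0.731 and 0.706). The genes most like MMP13 were WFDC5 and CPA4 (r = 0.93 and 0.898), but their r was 0.54 and 0.28 without tumour 15.

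Of 14 other metalloproteinases measured of 17 listed, 0 were called higher and 1 lower, with a median change of 0.02. The gene called lower was MMP16, a membrane-bound relative of MMP14, at 7.29 after and 7.87 before treatment (-0.58 ± 0.0981, SE, limma adjusted p = 0.00149, 18 tumours lower). Of 23 ADAM and ADAMTS proteases measured, 0 were called higher and 1 lower. That was ADAM28 (-0.34 ± 0.09, SE, limma adjusted p = 0.0311). These counts stand beside 4.02% of all genes called higher and 3.13% called lower. At an unadjusted p under 0.05 the 2 lists held 1 and 1 genes higher. Of 13 other inhibitors, activators and receptors measured, TFPI2, an inhibitor of serine proteases (1.4999 ± 0.361, SE, limma adjusted p = 0.0145), and CTSB, the lysosomal protease cathepsin B (0.39 ± 0.095, limma adjusted p = 0.0161), rose. RECK, a membrane-anchored inhibitor of metalloproteinases, fell (-0.43 ± 0.11, SE, limma adjusted p = 0.0166, 16 tumours lower). RECK stood at 6.98 after and 7.41 before treatment.

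**Figure D4:**
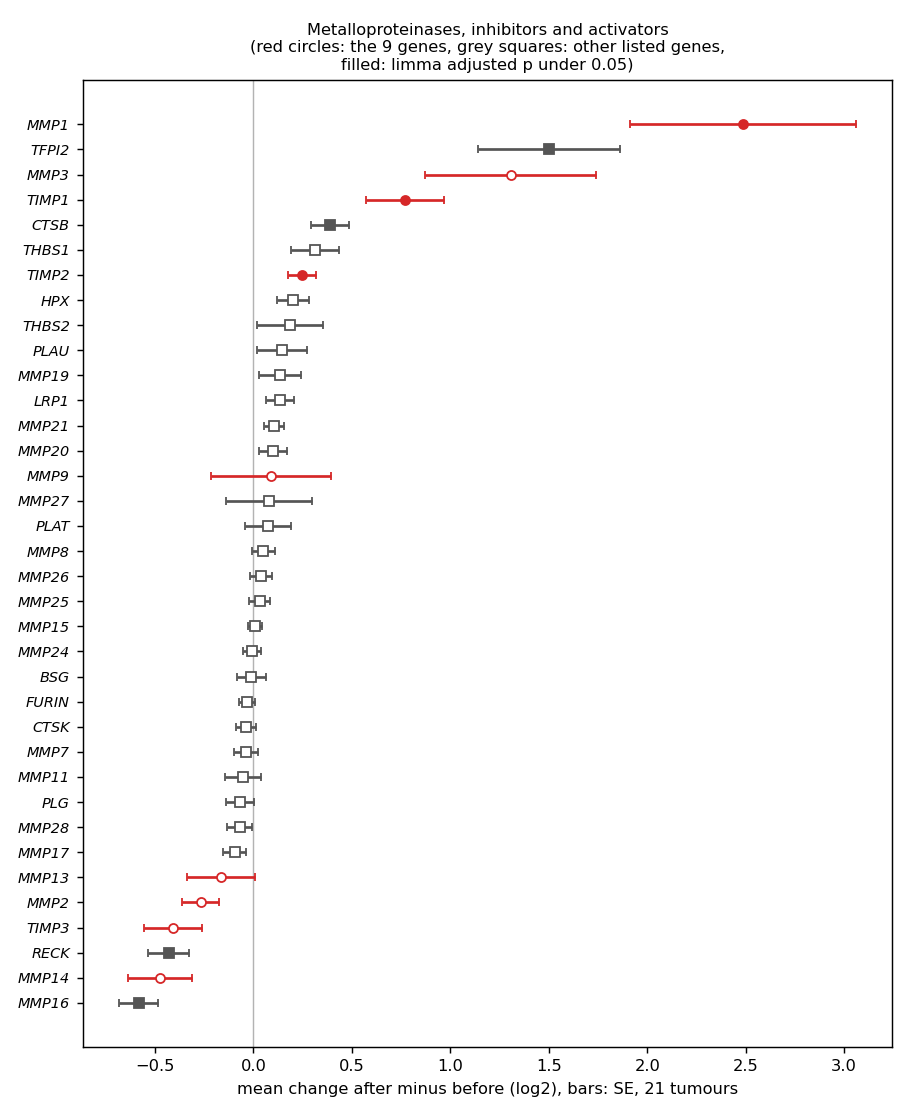
Mean change after minus before (log2) with SE bars over 21 tumours for the 9 genes (red circles) and the other metalloproteinases, inhibitors and activators measured (grey squares), filled where the limma adjusted p is under 0.05. MMP1 lies farthest to the right at 2.48 and MMP16 farthest to the left at -0.58.

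Among the upstream genes of MMP expression, 2 of 14 transcription factors measured rose, FOSL1 (0.73 ± 0.12, SE) and ATF3 (0.88 ± 0.22), both partners in AP-1 complexes (limma adjusted p = 0.00139 and 0.0179), and 0 fell. FOS (0.38 ± 0.304) and JUN (-0.04 ± 0.15) did not pass. Of 18 cytokines and growth factors listed as regulators of MMP1, FGF2 (1.06 ± 0.19, SE, limma adjusted p = 0.00228) and CXCL8 (2.44 ± 0.67, limma adjusted p = 0.0303) rose, and 0 fell. The median change of this list was 0.02. IL6 (0.77 ± 0.38, SE, limma adjusted p = 0.274), IL1A (-0.21 ± 0.22) and IL1B (-0.07 ± 0.14) did not pass. Of 10 collagen substrates measured, 1 was called lower, COL6A3 (-0.43 ± 0.11, SE, limma adjusted p = 0.0203), and 0 higher, with a median change of -0.17. COL1A1, a chain of type I collagen, did not pass (-0.302 ± 0.13, SE, limma adjusted p = 0.197). The counts of these short lists stand beside 4.02% of all genes called higher and 3.13% called lower.

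Tumour 15 departed from the others in these genes as well. There IL1A changed by -4.41, CXCL8 by -4.998, IL1B by -2.87, IL17A by -2.303 and the aggrecanase gene ADAMTS5 by -2.84, beside the changes of MMP1, MMP3 and MMP13 given above and of MMP9, which was at 6.20 after and 8.91 before. The collagen genes COL1A1 (1.297) and COL3A1 (0.81) changed the other way. Over all 15115 genes the change of tumour 15 had a correlation of -0.09 with the mean change of the other 20 tumours, the lowest of all, where the other tumours ran from -0.02 in tumour 5 to 0.58. CDKN1A, the p53 target that encodes the cell cycle inhibitor p21, was nonetheless higher in tumour 15, by 0.89. The 3′ over 5′ contrast of tumour 15 changed by 0.07. The cause of the different direction there was not tested.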

How the data were processed

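RNA of 21 dog sarcomas was measured on 42 arrays. Per the labels, a Qiagen kit gave the RNA from tissue in RNAlater, and the label was biotin. The values that the authors deposited are log2 levels between 2.13 and 14.6, made with Affymetrix Expression Console and RMA per the submitters' processing notes. Versions are not given in the sources used here. Of 43035 rows 111 control probe sets were left out. Symbols came from the platform annotation (29254 probe sets with 1 symbol, 439 with several, 13231 with none here).

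Groups follow the treatment label, and the code at the start of each title pairs the arrays. After removal of group means the 2 arrays of each of the 21 tumours matched each other best (correlations from 0.438 to 0.9). Labels do not say that each tumour came from another dog, so a p-value measures only how these tumours vary. The number of arrays limits the precision.

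All 42924 probe sets were tested with limma 3.58.1 (R 4.3.3), tumour as a block, eBayes, Benjamini-Hochberg, two-sided, at 0.05, after a check on simulated data. Relations used 100000 permutations (exact for 9 tumours), two-sided, with Python 3.11.15 and SciPy 1.17.1. Tumours were split at the largest gap of the poly-A control levels. The members, the lists and the genes named were chosen with earlier results of these data known. By the rule, other genes are named if called in a list, or by the highest r with a member, the first 5 for MMP1 and TIMP1 and the first 2 for the others. FOS, JUN, IL6, IL1A, IL1B, COL1A1, the neighbours of MMP1 and the genes named for tumour 15 fall outside this rule and were chosen after their values were seen. VIM, S100A8, CSF3R, CALCR and CTSK, named with their marker lists, fall outside it too. The check of tumour 15 against the marker lists and the 90 relations with marker lists and the 3′ over 5′ contrast were added after the values were seen. Alternatives were other blocks, filters, shrinkage, weights, scalings, a covariate, the Wilcoxon test, other probe sets and subsets of tumours.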

Additional observations from a re-analysis of the deposited data

How the results depend on the processing

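The rise of MMP1 passed in 13 of 15 alternatives and in all 21 fits that left out 1 tumour (2.28 to 2.95). It did not pass with no replicate block (2.48, limma adjusted p = 0.151) or in the tumours with low poly-A controls alone (2.45), where limma called 0 probe sets and 4989 had an unadjusted p under 0.05. TIMP1 (0.68 to 0.86 without 1 tumour, always called) did not pass with no replicate block (0.77), with the 3′ over 5′ covariate (0.68), with high or low poly-A controls alone (0.73 and 0.801), or without the 4 tumours with a contrast change beyond 0.5 in either direction (0.69). TIMP2 (0.22 to 0.28 without 1 tumour) did not pass with no block, a random block or the Wilcoxon test (0.25 each), the covariate (0.22), low poly-A controls alone (0.14) or without those 4 tumours (0.25). MMP3 (1.06 to 1.63) passed with a random block (1.31), array weights (1.29) and without tumours 13 and 15 (1.72), MMP14 (-0.55 to -0.38) with array weights (-0.47) and without tumours 13 and 15 (-0.58), and MMP2 (-0.303 to -0.23) by the mean of its probe sets (-0.24) and by another probe set (-0.385). MMP9 (-0.0993 to 0.23) turned its sign by the mean of its probe sets (-0.0052) and by both other probe sets (-0.0332 and -0.0719), and without tumour 3 or 18 (-0.0993 and -0.0263). MMP13 (-0.199 to 0.0147) did so with high poly-A controls alone (0.000617) and without tumour 15 (0.0147). TIMP3 (-0.47 to -0.33) never passed. Thus 0 members were called higher with no block (0.0794% of the genes) and with low poly-A controls alone (0%), 1 with the covariate (2.75%) and 1 without the 4 tumours (1.52%), and from 2 to 4 without 1 tumour. From 0 to 1 were called lower without 1 tumour, and 1 with array weights (4.57% of the genes), by the mean of probe sets (3.14%) and without tumours 13 and 15 (5.27%). Without tumour 15, 1 pair of changes passed by r and 1 by rho, against 2 and 4 with it, MMP9 and TIMP1 did not pass (r = 0.604), the SD ratio of MMP3 was 4.57, with levels before treatment near the lower end of the scale, and that of MMP13 was 1.01, against 0.65 with it. Over all probe sets 1273 were called higher and 1285 lower. These numbers were 27 and 3 with no block, 510 and 783 with high poly-A controls alone, 483 and 694 without the 4 tumours, 1128 and 663 with a random block, and 1658 and 2203 without tumours 13 and 15. Fewer tumours entered the subsets, and the causes were otherwise not tested. Signal near the level of absent transcripts limits MMP3, the dim probe sets of MMP2, MMP9 and MMP13, and the MMP1 levels of some tumours before treatment.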
